A study of Homo sapiens with 13 samples.

Results

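Transcription starts that carried a listed H3K27Ac peak but no listed H3K4me3 peak were examined in TE-7 cells, a human line established from esophageal epithelium, with and without the cytokine interleukin-13 (IL-13). The starts were chosen by which marks the deposited tables list: a start was taken when neither its transcript nor its gene appeared in the H3K4me3 peak table. This gave 2183 of the 20797 entries of the H3K27Ac table, which lie at 1774 starts, hold 1865 distinct peaks of 15147, and belong to 1618 of the 14591 genes with H3K27Ac (11.1%). RNA values were available for 1600 of these genes, and the other 18 carry joined gene names that the RNA tables do not use. The rule used only whether a peak was listed for each mark, so an unlisted mark means that no peak was assigned there, not that the mark was shown to be missing.

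H3K4me3, trimethylation of lysine 4 of histone H3, marks active promoters and is strongest at those rich in CpG dinucleotides. H3K27Ac and H3K9Ac are acetylations laid down at active promoters, and H3K27Ac also marks active enhancers, where H3K4me3 is low. IL-13 is a type 2 cytokine that signals through the IL-4 receptor alpha chain and STAT6, and in esophageal epithelium it is known for inducing the eosinophil chemokine CCL26, as in eosinophilic esophagitis.

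RNA came from TE-7 cells kept with 100 ng/ml IL-13 during 2, 6 or 24 hr, and from control cells of each time. The marks H3K27Ac, H3K4me3 and H3K9Ac were mapped by chromatin immunoprecipitation and sequencing (ChIP-seq) at 6 hr, with IL-13 and in control. Each of the 6 RNA and 6 ChIP-seq libraries was the only one of its group, so no difference between a pair of libraries has a replicate check, and the model is 1 cell line. Neither labels nor headers say which ChIP-seq library of a mark was treated, so the libraries are called library 1 and library 2.

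Markers of squamous esophageal epithelium summed to 2241 to 3336 RPKM (reads per length of gene and per number of mapped reads) in the 6 libraries. Those of simple epithelium summed to 877 to 1433 RPKM. Fibroblast, endothelial and leukocyte markers summed to at most 4.49, 4.27 and 0.524 RPKM, so epithelial markers far exceeded these. All 6 squamous, 4 simple epithelial and 8 brain markers reached 1 RPKM in some library. So did 1 of 4 fibroblast, 1 of 3 endothelial and 0 of 4 leukocyte markers. The control library at 2 hr stood apart: 8 brain markers summed to 26.9 RPKM there, against 7.25 to 8.19 RPKM in the other 5 libraries. The controls at 2 and 6 hr shared 359 identical values above 0, and no other pair of libraries shared any. The cause was not tested, and all later comparisons treat these controls as separate libraries. Total read numbers are unknown. The smallest common step of RPKM times kilobases, which is about the worth of 1 read in a gene of 1 kilobase, was 0.071 and 0.074 at 24 hr and 0.019 to 0.032 at 2 and 6 hr, so low values at 24 hr rest on fewer reads.

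Promoters are shown for 4 genes without an H3K4me3 peak whose RNA was higher with IL-13 at all 3 times, for SLC9A3, which is also without that peak and was higher at 2 and 6 hr, and for SOCS1, a cytokine signalling inhibitor that carries both marks and was also higher at all 3 times. They are RefSeq windows of 300 bases in build GRCh38.p14, matched by gene symbol, with 250 bases before the start and 50 after it. Capitals mark CpG dinucleotides.
GCNT3 promoter, chr15:59611533-59611832, plus strand, 3 CpG: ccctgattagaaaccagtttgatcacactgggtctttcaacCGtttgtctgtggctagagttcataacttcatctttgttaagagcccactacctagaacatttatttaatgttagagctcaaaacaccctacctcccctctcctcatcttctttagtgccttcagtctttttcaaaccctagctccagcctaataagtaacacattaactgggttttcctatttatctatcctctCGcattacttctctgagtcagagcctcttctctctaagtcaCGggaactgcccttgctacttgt
MMP7 promoter, chr11:102530698-102530997, minus strand, 4 CpG: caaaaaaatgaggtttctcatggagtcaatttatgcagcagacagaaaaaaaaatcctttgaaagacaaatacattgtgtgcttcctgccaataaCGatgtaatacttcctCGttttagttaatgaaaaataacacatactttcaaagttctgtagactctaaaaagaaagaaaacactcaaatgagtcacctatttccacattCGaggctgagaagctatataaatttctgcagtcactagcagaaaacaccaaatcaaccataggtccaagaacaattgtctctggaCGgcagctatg
SERPINB3 promoter, chr18:63661844-63662143, minus strand, 3 CpG: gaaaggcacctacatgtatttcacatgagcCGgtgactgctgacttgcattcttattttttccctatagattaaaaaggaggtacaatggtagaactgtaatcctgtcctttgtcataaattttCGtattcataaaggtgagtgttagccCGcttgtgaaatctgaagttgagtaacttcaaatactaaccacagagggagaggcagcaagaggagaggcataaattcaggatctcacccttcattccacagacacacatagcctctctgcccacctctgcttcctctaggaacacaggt
SERPINB4 promoter, chr18:63644207-63644506, minus strand, 2 CpG: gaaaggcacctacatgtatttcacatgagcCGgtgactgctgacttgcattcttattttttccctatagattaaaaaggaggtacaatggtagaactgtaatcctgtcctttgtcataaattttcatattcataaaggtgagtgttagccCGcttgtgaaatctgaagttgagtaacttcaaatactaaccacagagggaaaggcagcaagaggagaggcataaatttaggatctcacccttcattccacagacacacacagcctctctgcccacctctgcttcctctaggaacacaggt
SLC9A3 promoter, chr5:524400-524699, minus strand, 47 CpG: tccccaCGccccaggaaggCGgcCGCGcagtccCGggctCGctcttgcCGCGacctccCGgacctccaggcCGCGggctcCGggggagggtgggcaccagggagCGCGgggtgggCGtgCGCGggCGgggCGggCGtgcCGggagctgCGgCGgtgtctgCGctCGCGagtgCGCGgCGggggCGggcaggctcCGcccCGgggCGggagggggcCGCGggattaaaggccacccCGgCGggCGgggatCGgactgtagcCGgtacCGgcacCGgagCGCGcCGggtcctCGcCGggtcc
SOCS1 promoter, chr16:11256155-11256454, minus strand, 33 CpG: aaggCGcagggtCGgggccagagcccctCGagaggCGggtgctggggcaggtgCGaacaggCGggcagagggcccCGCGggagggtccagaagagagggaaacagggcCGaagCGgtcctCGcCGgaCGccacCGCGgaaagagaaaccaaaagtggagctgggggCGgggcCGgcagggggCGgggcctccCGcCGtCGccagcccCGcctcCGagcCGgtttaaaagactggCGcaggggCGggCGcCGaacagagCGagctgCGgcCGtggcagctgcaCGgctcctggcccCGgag

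GCNT3, MMP7, SERPINB3 and SERPINB4 had 3, 4, 3 and 2 CpG in these windows, while SLC9A3 had 47 and SOCS1 33. Over all 35116 windows the median was 14 and the quartiles 4 and 28, and 29.6% had at most 4. The windows of SERPINB3 and SERPINB4, adjacent gene copies, were identical at 296 of 300 positions. In MMP7, TATAAA began at position −30 and TGAGTCA, the AP-1 motif, at −67, and in GCNT3 TGAGTCA began at −1. These letters, on either strand, occur in 11.5% and 4.95% of all windows. The STAT6 motif, TTC and GAA with 4 bases between, was in none of the 6 windows printed and in 6.44% of all. Of the 11 genes with both marks that were higher at all 3 times, 9 had windows, with 2 to 51 CpG. A summary over the whole set is void, because only 960 of the 1618 genes (59.3%) had a window. CCL26 has several starts, and its window could not be tied to the start that carried its strongest peak.

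The rule left out every gene with a listed H3K4me3 peak, so some distance from listed H3K4me3 was built in. No distance was computed for a comparison set. The distance to the nearest start with an H3K4me3 peak had a median of 52.6 kilobases (quartiles 20.5 and 124 kilobases) and a minimum of 786 bases, and 90.1% of entries were more than 10 kilobases away. Only 4 entries, MIR661 among them, lay within 2 kilobases of one. Of the 1865 distinct peaks, 44 were also listed at starts outside the set. In 4 genes, such as HOXC4, the name also occurs inside a joined H3K4me3 gene name, so their lack of that mark is uncertain.

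H3K27Ac itself was weak at these starts. The level of a peak, computed from the authors' rescaled log2 values and given in rescaled reads of the higher library, had a median of 26.1 (quartiles 14.0 and 56.9), against 121.5 (52.8 and 219) at 13282 other peaks. A level of 30 was reached by 849 of 1865 (45.5%) and by 87.3% of the others. The authors listed 765 of the 1865 peaks (41.0%) as common to both libraries, 637 as unique to library 1 and 463 as unique to library 2, whereas 79.5% of the others were common. These figures describe what the rule selected.

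The strongest peaks did not all belong to well expressed genes. The highest level, 1193, was at LOC100131496 (chromosome 20, start 45947246, build hg19), whose RNA had a maximum of 0.133 RPKM and which lies inside ZMYND8, whose own start (45985474) had a level of 835 and whose RNA ranged from 6.17 to 14.9 RPKM. ZMYND8 is a reader of acetylated histones, and it is expressed although no H3K4me3 peak was assigned to it. Next came MIR661 (657) and LY6D (624), which encodes a membrane protein of keratinocytes, both on chromosome 8. MIR661 lies 1337 bases from the nearest start with a listed H3K4me3 peak, and whether its peak belongs to that start was not tested. TCTEX1D4 (560), MIR4669 (554) and LOC200261 (553) did not exceed 0.558 RPKM in any library. GJB5 (481, chromosome 1, start 35220721), which encodes connexin 31.1 of stratified epithelia, had 49.0, 30.7 and 37.7 RPKM with IL-13 at 2, 6 and 24 hr, against 54.2, 37.95 and 52.8 RPKM in control. Over the 36 genes with a level above 300, the median RNA at 6 hr was 0.196 RPKM with IL-13 and 0.252 RPKM in control.

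H3K9Ac, which the rule did not use, was listed at 838 of the 1774 starts (47.2%, exact binomial 95% interval 44.9 to 49.6), against 98.8% of 15423 other H3K27Ac starts (98.6 to 98.9). The intervals do not overlap, but they cover counting error only, and neighbouring starts can share a peak. By gene, H3K9Ac was listed for 24.2% of genes with an H3K27Ac level under 10, 35.6% from 10 to 30, 54.2% from 30 to 100, 83% from 100 to 300 and 100% above 300. All genes with an H3K27Ac level above 300 thus had both acetylations without a listed H3K4me3 peak.

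By RefSeq type, 1136 of the 1618 genes (70.2%) were protein coding, 196 (12.1%) long noncoding, 156 (9.64%) microRNA, 75 transcribed pseudogenes and 31 snoRNA, while 89.6% of the 12973 genes with both marks were protein coding. Of the genes with RNA values, 189 were shorter than 300 bases. Most genes (1117, 69.8%) had no neighbour of the same kind, but 189 genes lay in 48 runs of 3 or more adjacent genes. The longest run was 21 SNORD114 snoRNA genes on chromosome 14 (101434448 to 101459646), whose short genes lie close together. Pregnancy-specific glycoprotein (PSG) and chorionic gonadotropin beta (CGB) genes formed runs on chromosome 19, and IL36RN, IL1F10 and IL1RN, inhibitors or relatives of interleukin-1, lay together with PSD4 and PAX8 on chromosome 2 (113816685 to 114036498). On chromosome 18, SERPINB12, SERPINB13, SERPINB4 and SERPINB3 (61223393 to 61329197) and SERPINB7, SERPINB2, SERPINB10 and HMSD (61445011 to 61627645) formed 2 runs of protease inhibitor genes.

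The genes were mostly silent or weakly expressed. Their median RNA was 0.133, 0.116 and 0.141 RPKM with IL-13 at 2, 6 and 24 hr, against 0.141, 0.120 and 0.156 RPKM in control. Genes with both marks had medians of 8.60 to 11.1 RPKM, and the 8790 genes with neither mark had a median of 0 in every library. At least 1 RPKM was reached by 22.6% to 29.0% of the 1600 genes, by 83.0% to 85.6% of genes with both marks and by 7.65% to 8.61% of genes with neither. Thus in all 6 libraries the set lay between the others.

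**Figure D1:**
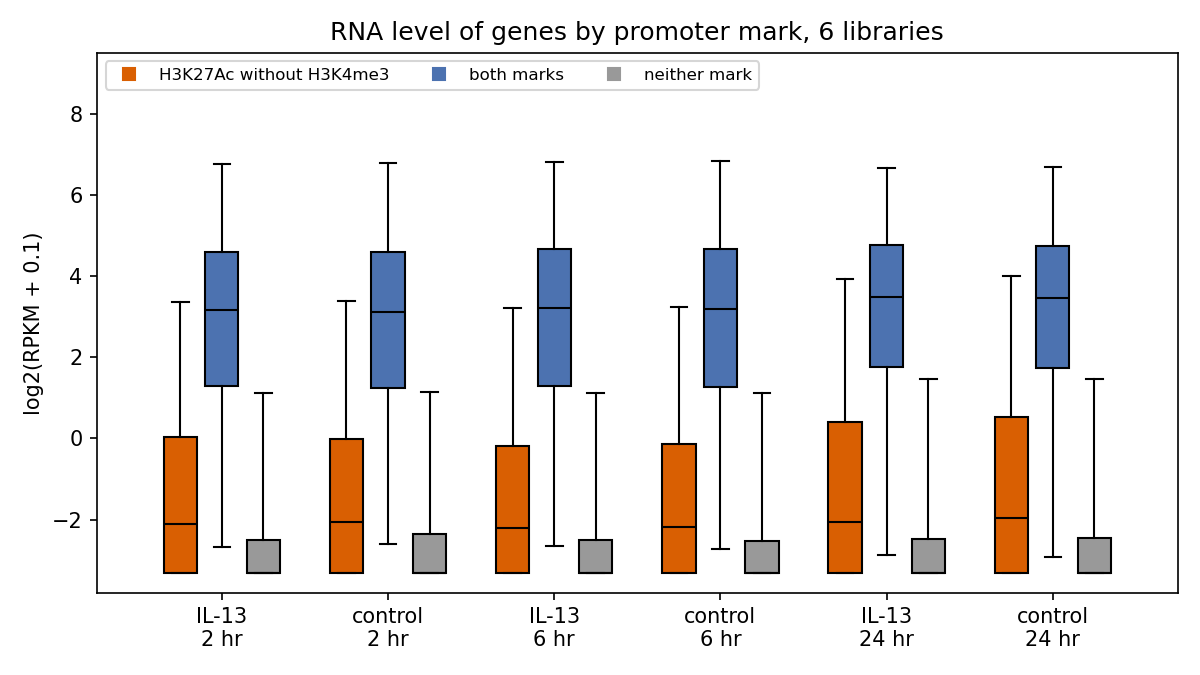
RNA level on the log2(RPKM + 0.1) scale in each of the 6 libraries (box: quartiles and median, whiskers: percentiles 5 and 95) for genes with H3K27Ac without H3K4me3 (1600), with both marks (12877) and with neither (8790). The set without H3K4me3 lies between the other groups in every library.

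RNA was higher at higher peak levels, up to a level of 300. In control cells at 6 hr the median was 0.0387 RPKM for levels under 10, 0.0687 from 10 to 30, 0.214 from 30 to 100 and 0.453 from 100 to 300. The 753 genes with a listed H3K9Ac peak had a median of 0.333 RPKM with IL-13 and 0.309 RPKM in control at 6 hr, against 0.0406 and 0.0368 RPKM for the 847 without one. These are descriptions across genes, which are not replicates.

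The 6 genes with the highest mean RNA were MTRNR2L8, ANXA2P2, RPL13AP20, KRT13, MMP13 and AGR2. MTRNR2L8, a nuclear copy of mitochondrial sequence, and the pseudogenes ANXA2P2 and RPL13AP20 share reads with near-identical copies, so their 551 to 783, 109 to 207 and 103 to 154 RPKM are uncertain. KRT13 (chromosome 17, 39657233 to 39661865), a keratin of the upper layers of esophageal epithelium, had 62.0, 59.4 and 256 RPKM with IL-13 at 2, 6 and 24 hr, against 65.4, 78.3 and 409 RPKM in control. AGR2, a secretory disulfide isomerase, had 47.8, 52.3 and 188 RPKM with IL-13, against 49.8, 55.6 and 261 RPKM in control. Both were lower with IL-13 at each time, but by less than 2-fold.

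IL-13 left few of these genes 2-fold apart. A gene counted as higher or lower if log2(RPKM + 0.1) differed by 1 or more between IL-13 and control and its higher value was at least 1 RPKM. At 2 hr 11 genes were higher and 6 lower of the 1600, and the background over all 23637 genes was 0.334% higher and 0.173% lower. At 6 hr 17 were higher and 4 lower, against backgrounds of 0.381% and 0.161%. At 24 hr 19 were higher and 41 lower, against backgrounds of 0.47% and 0.673%. As shares of the 1600 genes the higher counts were 0.688%, 1.06% and 1.19%, and the lower ones 0.375%, 0.25% and 2.56%. In these bulk libraries, fewer cells expressing a gene and less RNA per cell cannot be told apart. The 2 hr shares rest on few genes, and without the brain list, which holds GFAP, and without SYP and CRYAB 3 rather than 6 were lower at 2 hr. CRYAB was also counted as lower at 24 hr, with 0.413 RPKM with IL-13 and 1.39 RPKM in control.

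Shares depend on how strongly genes are expressed, so genes of at least 300 bases were set side by side by their mean RPKM over the 3 controls, which IL-13 values do not enter. At 6 hr, with control means of 0.3 to 1 RPKM, 6 of 252 genes of the set were higher (2.38%), against 3 of 757 with both marks (0.396%) and 3 of 521 with neither (0.576%). From 1 to 3 RPKM the counts were 3 of 175 (1.71%), against 10 of 1304 (0.767%) and 2 of 304 (0.658%). From 3 to 10 RPKM, 4 of 142 were higher (2.82%), namely CCL26, EHF, SERPINB13 and SERPINB10, against 14 of 3152 (0.444%) and 1 of 216 (0.463%). At control means of 10 RPKM or more, 0 of 99 genes of the set were higher at any of the 3 times, against 14 of 6351 with both marks at 6 hr (0.22%). At 2 hr, in the lowest range, the set had the smaller share, 1.19%, against 1.92% with neither mark. Among all genes reaching 1 RPKM, the set had 2.72% higher at 2 hr, 4.43% at 6 hr and 3.93% at 24 hr, and those with neither mark 2.68%, 1.39% and 3.08%. For lower genes the shares were 1.49%, 1.04% and 8.49% in the set, and 2.42%, 1.53% and 3.69% with neither mark. These are counts from 1 library a group, without a test, and the ranges were chosen after seeing the data. Requiring a mean of at least 1 RPKM left 21 of the 41 lower genes at 24 hr. That was 5.07% of 414 genes of the set with such a mean, against 0.533% of 10891 with both marks and 1.70% of 707 with neither. Lower genes were not set side by side by control mean. A gene counted as lower reaches 1 RPKM through its control, so weak genes can enter by that library. Among genes of at least 300 bases, the set held 21.3%, 23.4% and 25% of the 47, 64 and 68 genes counted as higher over the 3 times. Genes with both marks held 55.3%, 67.2% and 48.5% of them, and genes with neither 23.4%, 9.38% and 25%. Of the 22, 13 and 126 genes counted as lower, the set held 18.2%, 30.8% and 32.5%. At all lengths the set is 1600 of the 23637 genes, those with both marks 12877 and those with neither 8790.

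**Figure D2:**
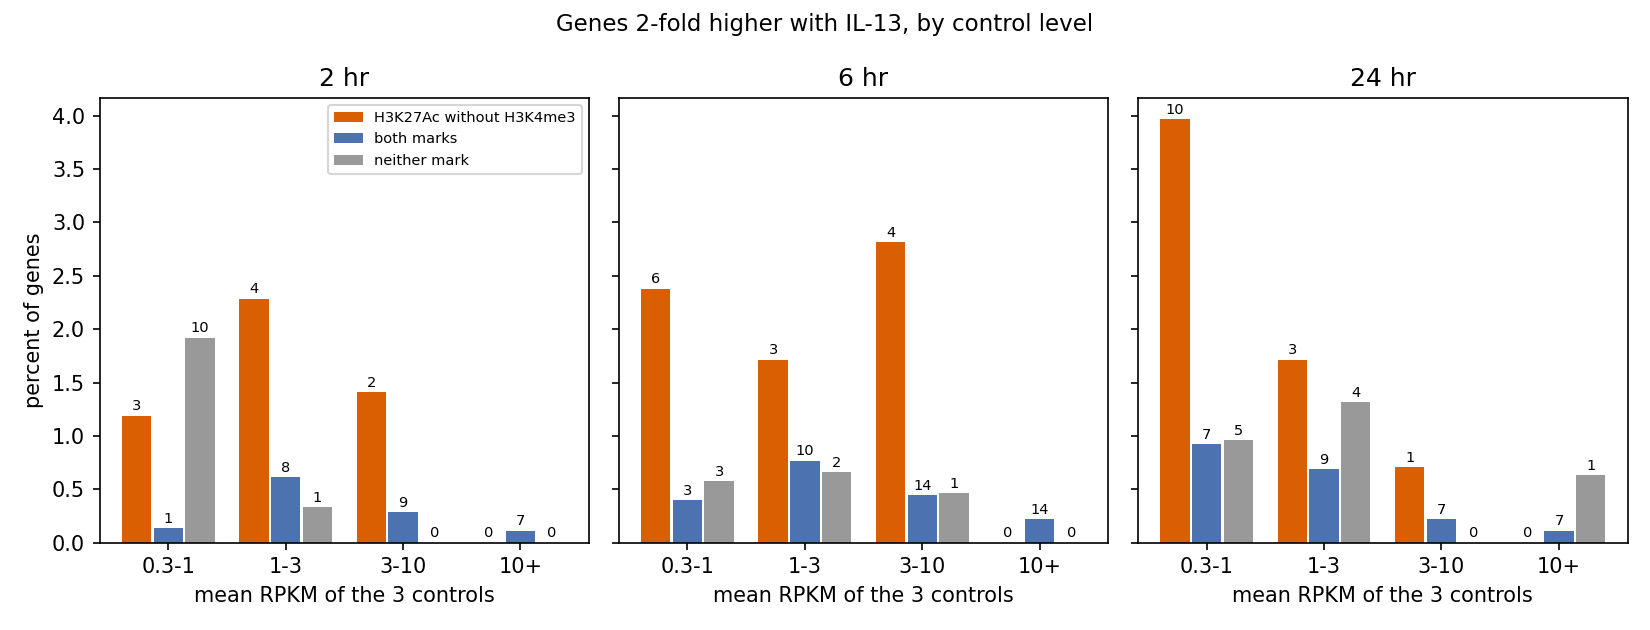
Percent of genes of at least 300 bases that were at least 2-fold higher with IL-13 than in control at 2, 6 and 24 hr, in 4 ranges of the mean RPKM of the 3 controls, for genes with H3K27Ac without H3K4me3, with both marks and with neither. Numbers above the bars are genes, and at a control mean of 10 RPKM or more the set has 0 of 99 genes at each time.

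In the authors' deposited table, at an adjusted p under 0.05, genes of the set numbered 1, 8 and 14 among the 2, 75 and 53 higher genes of the successive times. Of the lower genes it held 0 of 1, 0 of 8 and 17 of 87. The share of the set called was 0.5% higher at 6 hr, close to the 0.489% of genes with both marks, and 0.875% higher and 1.06% lower at 24 hr, against 0.241% and 0.505%. The authors' backgrounds over all genes were 0.00846% higher and 0.00423% lower at 2 hr, 0.317% higher and 0.0338% lower at 6 hr, and 0.224% higher and 0.368% lower at 24 hr.

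An IL-13 effect common to all 3 times was tested with limma, in a model of time plus treatment fitted to log2(RPKM + 0.1) values. None of the 384 genes of the set tested, and none of 11953 genes in all (background 0%), passed an adjusted p of 0.05. At an unadjusted p under 0.05 there were 114 of 384 (39 higher, 75 lower, 29.7%), against a background of 16.9% over all 11953. GCNT3 had the largest estimate of the genes named here, 3.72 ± 0.19 (SE) on the log2 scale, with a limma adjusted p of 0.114. IL20RB, a receptor subunit for interleukins 19, 20 and 24, was estimated at 0.63 ± 0.04 with the same adjusted p. With limma-trend GCNT3 and IL20RB passed, with a pseudocount of 1 SLC9A3 passed, and without the 2 hr pair MMP7 passed. A gene entered the test with 1 RPKM or more in any 3 libraries, which can admit it through the group where it is high. GCNT3 entered through its IL-13 libraries alone, since its controls had at most 0.498 RPKM. With no minimum RPKM, 9.56% of the 1600 genes of the set had an unadjusted limma p under 0.05, against 10.8% of all 23637.

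Among ligands, CCL26 (chromosome 7, 75398842 to 75419064, minus strand) had the highest RNA of the genes counted as higher. It had 23.2, 54.8 and 166 RPKM with IL-13 at 2, 6 and 24 hr, against 5.41, 6.27 and 5.51 RPKM in control. Its controls stayed within 1 RPKM of each other while each IL-13 value exceeded the previous one. H3K27Ac at its start at 75401572 had an M, the log2 ratio of library 1 over library 2, of −2.07 and H3K9Ac −2.89, whereas at its other start, 75419064, the M values of the common peaks were 0.04 and −0.33.

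Of protease inhibitors, SERPINB3 and SERPINB4, squamous cell carcinoma antigens that block cathepsins, had 7.58, 17.8 and 30.02 RPKM and 3.14, 7.80 and 12.9 RPKM with IL-13. Their controls had 1.47, 1.20 and 4.85 RPKM and 0.496, 0.413 and 1.72 RPKM. Every IL-13 value of each gene lay above all 3 of its control values. The genes are near-identical copies and reads may have been split between them. SERPINB13 (61254534 to 61266433, plus strand), a neighbouring inhibitor with a much stronger peak, had 10.18, 26.1 and 18.95 RPKM with IL-13, against 5.23, 6.64 and 10.8 RPKM in control, and passed the 2-fold limit at 6 hr alone. SERPINB2, SERPINB7 and SERPINB10 of the other run showed log2 ratios of 0.61, 0.02 and 1.01 at 6 hr.

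MMP7 (chromosome 11, 102391239 to 102401478, minus strand), the secreted protease matrilysin, had 3.83, 12.2 and 9.43 RPKM with IL-13, against 1.35, 1.09 and 1.12 RPKM in control. GCNT3 (chromosome 15, 59903982 to 59912210, plus strand), which builds the branched O-glycans of mucins, had 2.12, 2.87 and 8.54 RPKM with IL-13, against 0.141, 0.0720 and 0.498 RPKM in control. CDH26 (chromosome 20, 58571417 to 58588168, plus strand), a cadherin that binds integrins, had 0.822, 3.63 and 10.8 RPKM with IL-13, against 0.223, 0.312 and 0.210 RPKM in control. ALOX15, a 15-lipoxygenase, followed the same order in time, with 0.359, 1.10 and 3.64 RPKM with IL-13, against 0.167, 0.314 and 0.439 RPKM in control. CCL26, GCNT3, MMP7, SERPINB3 and SERPINB4 passed the 2-fold limit at all 3 times, and 11 genes with both marks did so as well among genes of at least 300 bases.

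**Figure D3:**
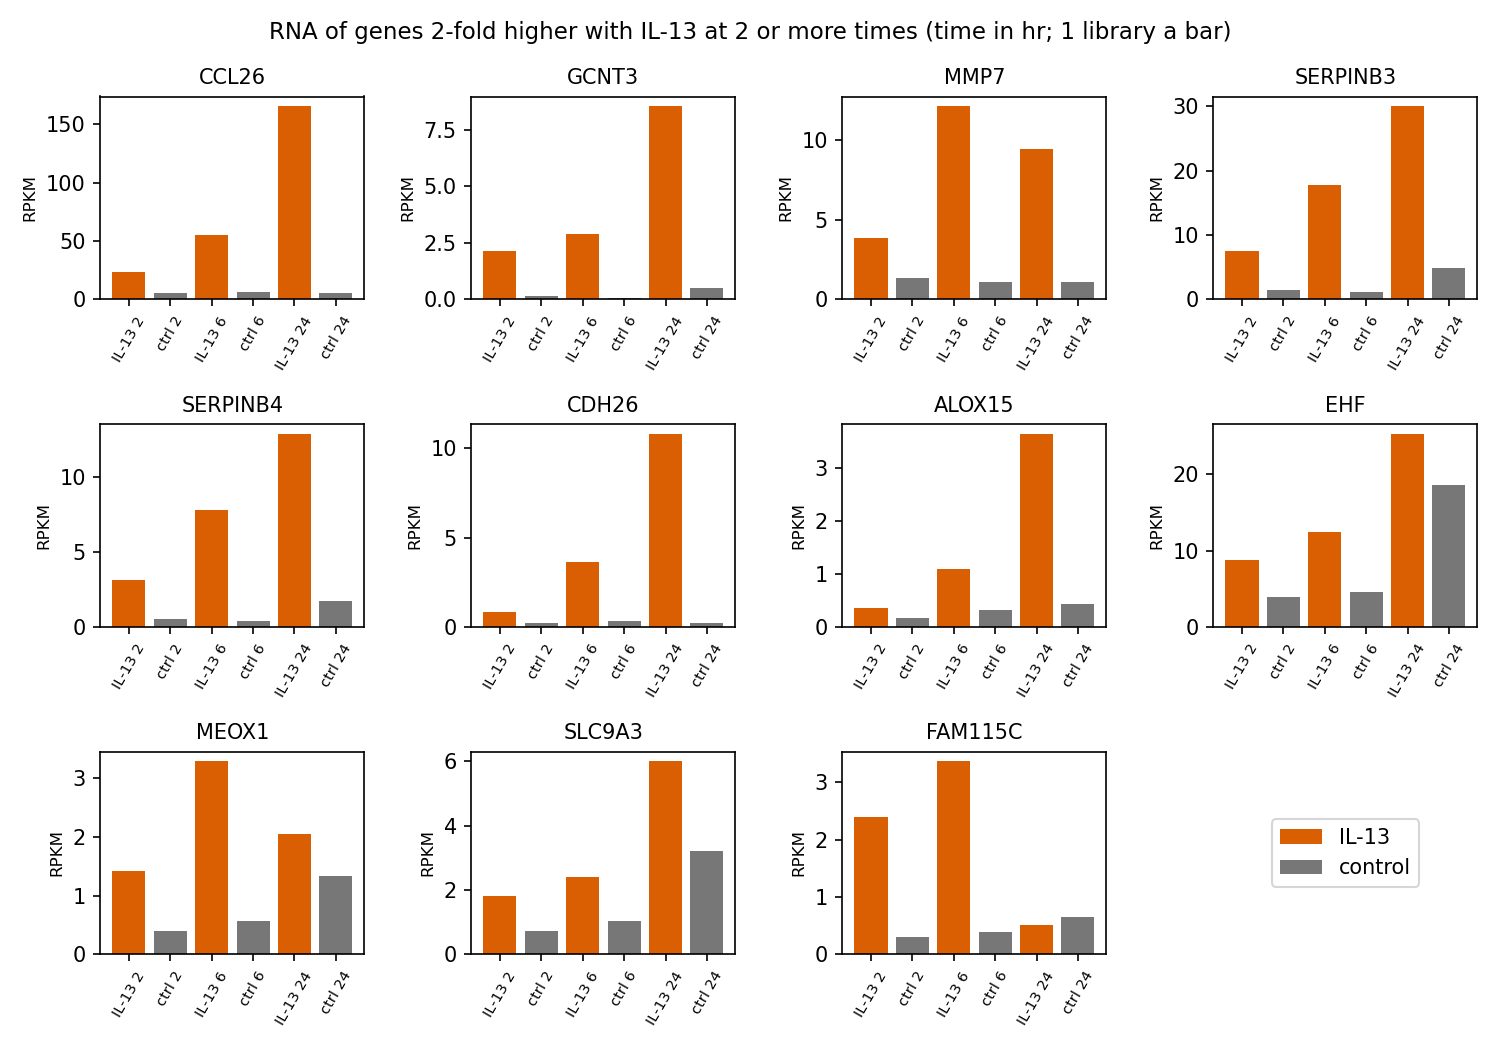
RPKM in each of the 6 RNA libraries (1 bar each, IL-13 beside control at 2, 6 and 24 hr, separate linear axes from 0) of the 11 genes of at least 300 bases that were 2-fold higher at 2 or more times. CCL26, GCNT3, SERPINB3, SERPINB4, CDH26 and ALOX15 have their highest bar with IL-13 at 24 hr, while MEOX1, MMP7 and FAM115C have it with IL-13 at 6 hr.

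Other genes were higher for a shorter time. The homeobox gene MEOX1 had 1.42, 3.28 and 2.05 RPKM with IL-13, against 0.396, 0.560 and 1.33 RPKM in control. FAM115C had 2.40, 3.37 and 0.507 RPKM with IL-13, against 0.312, 0.386 and 0.651 RPKM in control, so it was no longer higher at 24 hr. EHF, an ETS factor of epithelia, had 8.81, 12.5 and 25.3 RPKM with IL-13, against 3.89, 4.62 and 18.6 RPKM in control. SLC9A3, the sodium-proton exchanger NHE3, had 1.83, 2.41 and 6.01 RPKM with IL-13, against 0.717, 1.03 and 3.21 RPKM in control. At 24 hr alone, RARB, a retinoic acid receptor, had 6.29 RPKM with IL-13 and 1.71 RPKM in control, and VWF, best known from endothelium, had 4.21 and 0.943 RPKM. The other endothelial markers, PECAM1 and CDH5, did not exceed 0.460 RPKM in any library. EHF, RARB and VWF, and the SERPINB genes of the second run, were chosen for naming after their values were seen.

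At 24 hr 41 genes were lower and 19 higher. C10orf99, a secreted peptide of barrier epithelia, had 3.62 RPKM with IL-13 and 25.5 RPKM in control, after at most 0.214 RPKM at 2 and 6 hr. CALML5, a calmodulin-like protein of differentiating keratinocytes (chromosome 10, 5540658 to 5541533, minus strand), had 1.39, 0.503 and 1.22 RPKM with IL-13 at 2, 6 and 24 hr, against 1.63, 1.80 and 8.25 RPKM in control. THEM5, a mitochondrial thioesterase, had 2.36 RPKM with IL-13 and 10.7 RPKM in control at 24 hr. LYNX1 had 0.122 and 1.39 RPKM, so its value with IL-13 rests on very few reads.

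Among proteases, MMP13 (collagenase 3) had 180, 75.7 and 163 RPKM with IL-13, against 180, 67.9 and 404 RPKM in control, and MMP10 (stromelysin 2) had 44.1, 21.6 and 25.3 RPKM, against 40.5, 20.02 and 52.9 RPKM. Their log2 ratios were −1.31 and −1.06 at 24 hr, and between 0.00 and 0.16 at 2 and 6 hr. IL1RN, the interleukin-1 receptor antagonist, had 8.34, 6.55 and 7.52 RPKM with IL-13, against 10.9, 10.4 and 19.8 RPKM in control, and SPRR1B, a cornified envelope protein, had 6.48, 3.12 and 1.96 RPKM, against 9.09, 6.09 and 8.69 RPKM. LY6D had 9.69 RPKM with IL-13 and 24.2 RPKM in control at 24 hr. MMP10, IL1RN and SPRR1B were chosen for naming after their values were seen.

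The lower genes at 6 hr included CALML5, RGCC and KLK5. RGCC, a cell cycle regulator, had 1.71 RPKM with IL-13 and 4.12 RPKM in control at 6 hr, and KLK5, an epidermal serine protease, had 0.506 and 1.12 RPKM. At 2 hr GFAP, SYP and CRYAB also passed as lower, with 0, 0.171 and 0.212 RPKM with IL-13, against 2.06, 1.00 and 1.55 RPKM in control. GFAP and SYP are brain transcripts, and the control library at 2 hr is the one that carried brain markers. Their part in these 3 differences was not tested.

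By function, 9 of the 30 measured genes on a list of IL-13 responsive genes of epithelia belonged to the set, and 7 of them were higher at 6 hr and 7 at 24 hr, with none lower. The other members, CAPN14 and IL31RA, did not exceed 0.392 RPKM in any library. Over all genes of the set reaching 1 RPKM the median log2 ratio was −0.01, −0.06 and −0.15 at 2, 6 and 24 hr, against 0.00, 0.00 and 0.02 over all genes tested. The list was written with published IL-13 responses and earlier results of these libraries known, so its direction is not independent evidence.

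Of 50 cytokines and chemokines, 18 were in the set, and of the 7 that reached 1 RPKM at 6 hr 1 was higher, CCL26. For scale, the set is 1600 of the 23637 genes with RNA values, and 0.381% of all genes were higher at 6 hr. Among genes reaching 1 RPKM, 0.753% of all and 4.43% of the set were higher then. IL1B had 45.6, 20.7 and 6.14 RPKM with IL-13, against 57.9, 24.2 and 11.02 RPKM in control. IL24 had 7.90, 0.781 and 0 RPKM with IL-13, against 5.88, 0.408 and 0 RPKM in control, and TNFSF18 had at most 1.66 RPKM. Of 34 receptors 6 were in the set and none differed 2-fold in a counted way at any time. At most 0.47% of all genes were higher and 0.673% lower at any time, so a count of 0 in so few genes is near the background. IL7R had 29.4, 14.8 and 15.2 RPKM with IL-13, against 28.8, 12.8 and 13.8 RPKM in control, and IL20RB had 15.8, 11.7 and 57.9 RPKM, against 10.18, 7.51 and 37.1 RPKM. IL1RL1, the receptor of IL-33, and IL1R2, an interleukin-1 decoy receptor, stayed at or below 3.04 RPKM.

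The set held 18 of 49 proteases and inhibitors, of which 13 reached 1 RPKM at 6 hr, with 5 higher and 1 lower, and 12 did so at 24 hr, with 3 higher and 2 lower. Over all genes of the tables, 0.381% were higher and 0.161% lower at 6 hr, and 0.47% and 0.673% at 24 hr. Among genes reaching 1 RPKM, 0.753% of all were higher and 0.318% lower at 6 hr. In the set the shares of such genes were 4.43% and 1.04% at 6 hr, and 3.93% and 8.49% at 24 hr. KLK11, a kallikrein-related serine protease, had 8.51, 6.40 and 17.9 RPKM with IL-13, against 10.1, 10.1 and 31.9 RPKM in control, and was lower at each time by less than 2-fold. Of 55 squamous differentiation genes 16 were in the set, and of the 9 reaching 1 RPKM 0 were higher at any time and 0, 1 and 3 were lower at 2, 6 and 24 hr. At 24 hr PADI3, which citrullinates hair follicle proteins, had 50.9 RPKM with IL-13 and 41.3 RPKM in control, and CLCA2, a regulator of chloride currents, had 29.7 and 41.2 RPKM. ALOXE3 and RHCG stayed at or below 2.01 RPKM.

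Of 32 interferon-stimulated genes 10 were in the set, and none was counted as higher or lower at any time. Over all 23637 genes at most 0.47% were higher and 0.673% lower at any time, so counts of 0 or 1 in lists this small say little. IFI44 had 40.4, 36.1 and 89.5 RPKM with IL-13, against 35.6, 32.9 and 99.3 RPKM in control, IFIT3 34.9, 35.8 and 115 RPKM, against 26.0, 22.8 and 98.4 RPKM, and OAS2 17.6, 6.46 and 26.1 RPKM, against 15.1, 8.04 and 30.4 RPKM. They were higher at 24 hr than at 6 hr with IL-13 as well as in control. Of 32 channels and transporters 12 were in the set, with 1 higher and 1 lower at 24 hr. SCNN1A, the epithelial sodium channel alpha subunit, had 11.4, 7.03 and 29.3 RPKM with IL-13, against 12.7, 10.5 and 36.0 RPKM in control. ABCA12, a lipid transporter of keratinocytes, stayed at or below 3.35 RPKM. Of 21 mucins and glycan enzymes 4 were in the set, and GCNT3 was the only one counted as higher, while FUT2 had at most 3.12 RPKM and FUT6 and MUC20 at most 0.233 RPKM. Of 30 leukocyte genes 5 were in the set, none counted as higher or lower at any time, and LCK and SPI1 stayed at or below 2.11 RPKM. Of 21 brain genes 3 were in the set, and CAMK2A and NEFL did not exceed 0.665 RPKM.

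At a level of at least 30, 118 of 849 peaks of the set (13.9%) were at least 2-fold higher in library 1 and 106 (12.5%) in library 2, against backgrounds of 5.04% and 3.71% of all 12440 peaks of that level. Weak peaks vary more, and the peaks of the set are weak. A level in the higher library also lets a peak in through the library where it is high, so peaks were set side by side by the mean level of both libraries (2 to the power of A), in ranges chosen after seeing the data. From 15 to 30 the shares were 19.8% and 17.6% of 404 peaks of the set, close to the 18.1% and 15.4% of 1406 others. From 30 to 60 they were 11.3% and 10.4% of 327, against 8.97% and 6.93% of 1963, and from 60 to 120 they were 5.18% and 5.18% of 193, against 3.50% and 1.29% of 2860. Above 120, 1 peak of 145 was higher in each library, against 36 and 6 of 6120. No test was made, since each library is the only one of its group. In percentage points the gaps at matched mean levels were smaller than those to the background, but shares fell with level in both groups. Relative gaps were smaller in library 1 but not always in library 2, with 5.18% against 1.29% from 60 to 120.

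**Figure D4:**
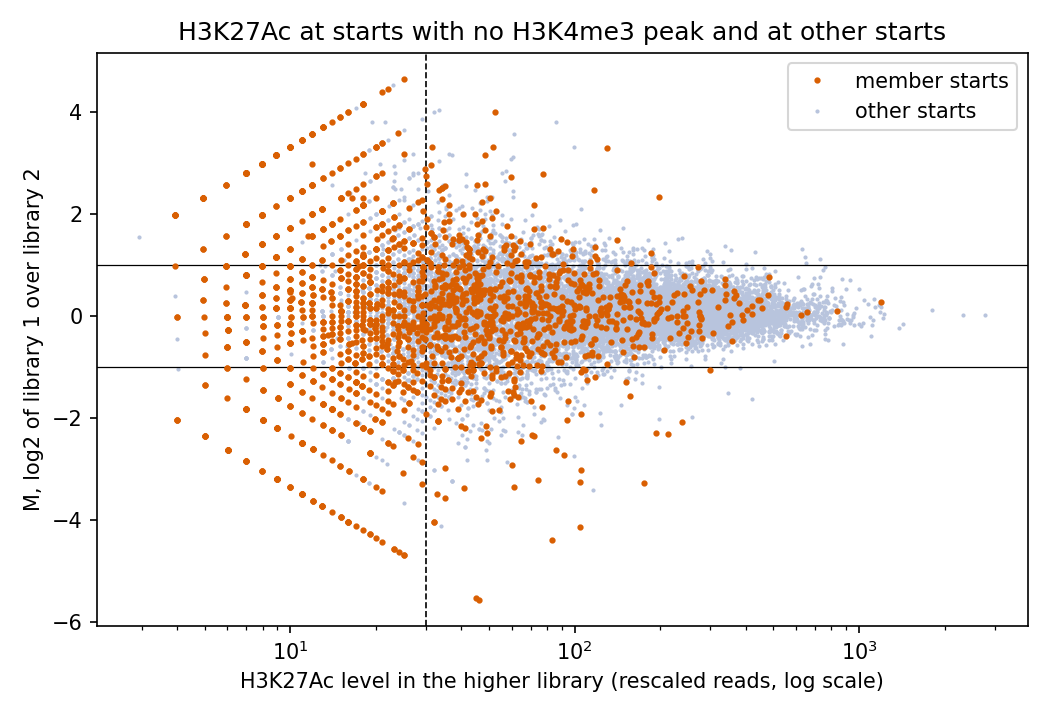
H3K27Ac M (log2 of library 1 over library 2) against the level in the higher library (log axis) for 1865 distinct peaks at starts without an H3K4me3 peak (member starts) and 13282 at other starts. The dashed line marks the level of 30 and the horizontal lines a 2-fold difference, and above a level of 120, 7 of 171 member peaks and 26 of 6705 others lie at −1 or lower.

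The lowest M values with a level of at least 30 were at OR10S1 (−5.56), ANPEP (−5.53), IL19 (−4.39), MGC32805 (−4.14), KCNK3 (−4.03) and GCNT3 (−4.03). IL19, a cytokine of the interleukin-10 family, was listed at 0 RPKM in all 3 controls, and with IL-13 it had 0, 0.141 and 0.138 RPKM. ANPEP, a membrane aminopeptidase, did not exceed 0.293 RPKM, and MGC32805 had 0.446, 0.507 and 3.10 RPKM with IL-13, against 0.720, 0.770 and 2.42 RPKM in control. The highest M values were at LINC00574 (4), MIR3122 (3.32), CLDN19 (3.32), AIM1L (3.29), PDCD1LG2 (3.16) and MEI1 (2.96, at a secondary peak, with −0.36 at its strongest one). AIM1L (chromosome 1, start 26680621) was the only one of these that reached 1 RPKM, with 1.22 RPKM with IL-13 and 2.97 RPKM in control at 24 hr. OR10S1 and KCNK3 did not exceed 0.0661 RPKM, so most starts at the extremes of M had little RNA.

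Of the 11 genes with higher RNA at 6 hr and a peak level of at least 30, 7 had an M of −1 or lower. Of 82 genes whose peak had an M of −1 or lower, 25 reached 1 RPKM, and 7 were higher with IL-13 and 0 lower: GCNT3, SERPINB4, SERPINB3, MMP7, CDH26, CCL26 and SLC9A3. Of 99 genes with an M of 1 or higher, 18 reached 1 RPKM, and 0 were higher and 0 lower. Of 568 genes between, 200 reached 1 RPKM, with 4 higher (MEOX1, SERPINB13, NLRP10 and MIR1182) and 3 lower, among them RGCC and CALML5. The background at 6 hr was 0.753% higher and 0.318% lower among genes reaching 1 RPKM. Genes with both marks showed 8 higher and 0 lower of 98 with an M of −1 or lower, and 0 higher and 2 lower of 250 with an M of 1 or higher. The median log2 ratio of the set was 0.28, −0.06 and −0.19 in the low, middle and high classes of M. Both limits take the higher library, so they can admit a gene through the side where it is high. At 6 hr GCNT3, SERPINB4 and CDH26 reached 1 RPKM only with IL-13. GCNT3, SERPINB3 and SERPINB4 reached a level of 30 only in library 2. CCL26, MMP7 and SLC9A3 met each limit in both libraries. What the limits add to these counts was not tested. MIR1182 is 97 bases long, so its value rests on few reads, and it and NLRP10 were chosen for naming after their values were seen.

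**Figure D5:**
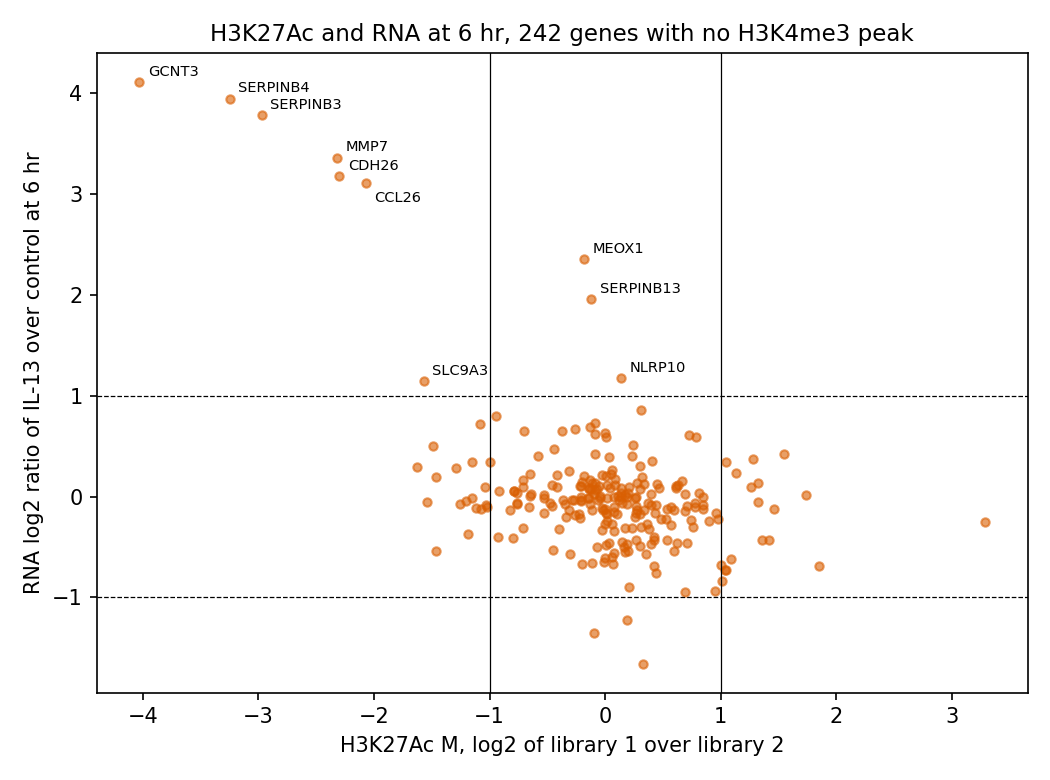
RNA log2 ratio of IL-13 over control at 6 hr against H3K27Ac M (log2 of library 1 over library 2) for 242 genes without an H3K4me3 peak that reached 1 RPKM, had a peak level of at least 30 and were at least 300 bases long. Lines mark 2-fold differences, genes at least 2-fold higher in RNA are named, and the 7 at the upper left have an M of −1 or lower.

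H3K9Ac was listed at 3 of these 7 genes. Its M was −2.89 at CCL26, −1.88 at CDH26 and −0.39 at MMP7, and it was not listed at GCNT3, SERPINB3, SERPINB4 or SLC9A3. SERPINB13, whose RNA log2 ratio was 1.96 at 6 hr, had an H3K27Ac level of 357 with an M of −0.12, and the authors' −log10 p of that peak was 14.36.

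Many of these genes also differed between times without IL-13. In control cells 214 of 501 genes of the set that reached 1 RPKM at either time were at least 2-fold higher at 24 hr than at 6 hr, and 41 were lower (42.7% and 8.18%), against backgrounds of 16.2% and 6.09%. The median log2 ratio was 0.74, against 0.23 over all genes, and after centring on that shift 36.9% were higher and 10.6% lower, against 11.4% and 9.46%. The limit takes the higher of both times, so it can admit a weak gene through the time where it is high. Genes with both marks, which had far more RNA, had 14.4% higher and 5.70% lower before centring. Levels were not matched here, so what level and limit add to these shares was not tested. The column names of the 24 hr libraries carry a prefix that the earlier ones lack, and whatever it marks cannot be told apart from time.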

How the data were processed

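The authors deposited RPKM values of 23637 gene symbols for 6 RNA libraries, with their own log2 ratio, p-value and adjusted p-value, per the file headers. Each ChIP-seq table deposited holds, under MAnorm's column names, a rescaled log2 ratio M and log2 mean A. It also holds a deposited −log10 p-value. Tools in the submitters' processing notes are Bowtie 1.0.0, MACS2 2.0.10.20130712, TopHat2 2.0.9 and DESeq, with build hg19. Counting and strand settings were not given in the sources used here. The input library and 6 columns of raw reads were not used.

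Levels were computed as 2 to the power of A plus or minus M/2. Peaks with identical values at starts chained within 20 kb were counted once. ChIP-seq starts on the plus strand were shifted by 1 to be 1-based. Log2 ratios used log2(RPKM + 0.1), which understates the change of low genes. No count model could be fitted to RPKM. With 1 library a group, the sole test was of an IL-13 effect common to 3 times, by limma 3.58.1, for genes that reached an RPKM of 1 in 3 or more libraries. It was checked on simulated data with equal noise in every gene, which tests neither the RPKM limit nor the noise of weak genes. Its p-values measure the spread over times, which may be technical. The limits were 2-fold with an RPKM of at least 1, and an M of at least 1 in size with a level of at least 30. Binomial intervals are exact. Biotypes and promoters came from RefSeq. R 4.3.3, Python 3.11.15, pandas 2.3.3, NumPy 2.4.6, SciPy 1.17.1 and matplotlib 3.10.9 were used.

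The members and gene lists were chosen with earlier results of these data known. Named genes are the 8 peaks with the highest level, the 6 lowest and 6 highest M, the 6 highest and 4 lowest log2 ratios per time among genes of at least 300 bases that passed the limit, the 6 with the highest mean RPKM, and up to 4 per list by level. Exceptions are stated in the text, and some genes that this rule takes are not reported here.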

Additional observations from a re-analysis of the deposited data

Results flagged for a closer look

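MIR1182 was the only gene of the set to pass the 2-fold limit in opposite directions, with log2 ratios of IL-13 over control of −1.46 at 2 hr, 4.5 at 6 hr and 4.9 at 24 hr. It is 97 bases long, the controls at 6 and 24 hr are listed at 0, and the difference between times was not tested.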

How the results depend on the processing

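Of 77 alternative values, 44 stayed within 1.5 times the reported count or within the interval of the reported share, and 33 moved. Of the 1618 genes, 753 remained when a level of at least 30 was required. With a pseudocount of 1, the counts of higher and lower genes were 7 and 2 at 2 hr, 12 and 0 at 6 hr, and 11 and 15 at 24 hr. With no minimum RPKM they were 30 and 34, 40 and 24, and 57 and 86. With a minimum of 0.5 the lower genes were 14 at 2 hr and 8 at 6 hr. 3 further settings were chosen after seeing the data. A mean of at least 1 RPKM left 2 lower genes at 2 hr and 21 at 24 hr, a peak level of at least 30 left 2 lower at 2 hr, 11 higher at 6 hr and 23 lower at 24 hr, and leaving out the brain list with SYP and CRYAB left 3 lower at 2 hr. Ranges of the control mean and of the mean peak level, with values in the report, were added later too. Splitting joined gene names, also added later, left 1614 genes. The limma test called 1 gene with a pseudocount of 1 and 2 with limma-trend, and 0 to 1 when a time was left out. Peaks higher in library 1 and in library 2 numbered 311 and 287 with a level of at least 10, 37 and 37 with at least 60, and 53 and 56 with an M limit of 1.5. The share of genes reaching 1 RPKM in control at 6 hr was 25.4% among genes of at least 300 bases and 30.6% with a level of at least 30, and 30.8% reached 0.5 RPKM. H3K9Ac was listed at 64.8% of starts with a level of at least 30. The 7 higher genes with an M of −1 or lower numbered 6 or 7 in the alternatives run, and those with an M of 1 or higher 0 in each. The causes were not tested, beyond the limits that each setting itself removes. The promoter alternatives were not run, since under 80% of the genes had a window. The labels carry no replicate numbers, so there is no replicate block, and the limma model with time as a term already sets IL-13 against control within each time.

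Depth limits the low values: at 24 hr 1 read weighs more RPKM than at 2 and 6 hr, and the median of the set was at most 0.156 RPKM in every library.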
